A study of Mus musculus with 4 samples.

Results

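Chemokines are small secreted proteins that direct the movement of leukocytes, and 10 chemokine genes of mouse cardiomyocyte cultures are described here: Cxcl10, Cxcl1, Cxcl2, Cxcl5, Cxcl12, Ccl2, Ccl7, Ccl5, Ccl9 and Ccl20. They are 10 of 32388 named genes and unnamed features on the array, and 11 probes measured them, each matched by the RefSeq accession of its spot. The genes were chosen with their values known, both between siErbB4 and siScr and between replicates 2 and 1, so these differences are given as descriptions with no test. The cells were cardiomyocytes grown from CGR8, a mouse embryonic stem cell line, in medium with 2% serum. The siErbB4 group (2 samples) received for 48 hours an interfering RNA directed at Erbb4, a receptor tyrosine kinase that binds neuregulins, and the siScr group (2 samples) received a scrambled RNA. All samples share the line, the medium and the transfection agent, and nothing in the labels says whether the samples of a group came from separate cultures, so a p-value here measures only the spread between these samples.

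Chemokines fall into families named for the spacing of their first cysteines, CXC and CC. Many are switched on by the transcription factor NF-kappaB after signals such as tumour necrosis factor or interleukin 1, while Cxcl10 is known above all as a gene induced by interferons, whose protein attracts T cells through the receptor Cxcr3. Cxcl12 differs from both, being made steadily by stromal cells and holding cells that carry Cxcr4.

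Each sample was hybridised to 1 Agilent array with a single dye, and all 4 arrays lay on 1 slide. A signal below is the background-subtracted brightness of a probe. A difference is on the log2 scale after subtracting the 75th percentile of each array, which lay between 878 and 989. Each comparison had no term for the other factor. An SE for siErbB4 minus siScr therefore contains the replicate difference. An SE or p for replicate 2 minus 1 contains the transfection difference. Between 64.8% and 68.5% of probes were well above background. The labels disagree in places: siErbB4 samples are described with the scrambled RNA in a free-text field, and replicate 2 of that group has ErbB5 in its source. The growth protocol gives alternative incubation times, so the 48 hours given above is not certain. The groups here follow the titles and the transfection label. The single Erbb4 probe gave signals of 15.0 and 2.83 in siErbB4 replicates 2 and 1, against 11.9 and 9.02 in siScr replicates 2 and 1. It was well above background on 1 array, siErbB4 replicate 2, and so does not check the labels. Cardiomyocyte markers were present, with all 10 well above background on every array.

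The windows around the gene starts of Cxcl10, Cxcl1, Cxcl2 and Cxcl12 are shown because these genes differ in the letters of sites for NF-kappaB and interferon-activated factors. Each runs 5′ to 3′ on the strand of the gene, with 250 bases before and 50 after the start, from RefSeq on build GRCm38.p6, where 6 of the 10 genes had a window. They lie at chr5:92348840-92349139 on the minus strand for Cxcl10, and on the plus strand at chr5:90890995-90891294 for Cxcl1, chr5:90903649-90903948 for Cxcl2 and chr6:117168285-117168584 for Cxcl12. Capitals mark matches, on either strand, to an NF-kappaB site (GGG, any 3 bases, TTCC), an interferon-stimulated response element (GAAA, any 2 bases, GAAA) or an AP-1 site (TGANTCA).
Cxcl10: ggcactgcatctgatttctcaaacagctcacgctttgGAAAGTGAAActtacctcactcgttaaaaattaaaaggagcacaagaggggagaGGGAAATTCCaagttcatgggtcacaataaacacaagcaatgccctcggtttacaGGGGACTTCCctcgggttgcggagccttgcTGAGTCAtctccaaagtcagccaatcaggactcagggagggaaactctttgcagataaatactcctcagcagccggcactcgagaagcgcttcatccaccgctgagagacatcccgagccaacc
Cxcl1: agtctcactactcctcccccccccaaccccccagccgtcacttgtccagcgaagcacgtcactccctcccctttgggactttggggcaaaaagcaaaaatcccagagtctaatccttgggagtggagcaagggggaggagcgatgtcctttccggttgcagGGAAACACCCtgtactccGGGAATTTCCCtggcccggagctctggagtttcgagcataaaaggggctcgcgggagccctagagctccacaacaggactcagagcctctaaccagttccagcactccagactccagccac
Cxcl2: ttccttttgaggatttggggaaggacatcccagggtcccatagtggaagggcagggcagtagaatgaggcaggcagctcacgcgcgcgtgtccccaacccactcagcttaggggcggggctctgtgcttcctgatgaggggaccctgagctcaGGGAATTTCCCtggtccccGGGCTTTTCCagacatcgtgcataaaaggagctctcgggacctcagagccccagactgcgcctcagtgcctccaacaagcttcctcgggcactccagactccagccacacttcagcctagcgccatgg
Cxcl12: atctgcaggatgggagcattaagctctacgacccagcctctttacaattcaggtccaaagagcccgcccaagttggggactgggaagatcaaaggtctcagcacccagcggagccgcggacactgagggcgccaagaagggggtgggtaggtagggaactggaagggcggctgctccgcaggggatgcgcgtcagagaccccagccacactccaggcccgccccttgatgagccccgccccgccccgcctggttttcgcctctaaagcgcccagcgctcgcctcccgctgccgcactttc

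The Cxcl10 window held the interferon-type letters at base -213 from the start, NF-kappaB letters at -159 and -104, and AP-1 letters at -74. In Cxcl1 the NF-kappaB letters stood at -89 and, on both strands at overlapping positions, at -71 and -70. In Cxcl2 they stood at -97 and -96, again overlapping on both strands, and at -78. Of the other windows, that of Ccl20 held NF-kappaB letters at -80, that of Ccl9 NF-kappaB letters at -35 and AP-1 letters at -53, and that of Cxcl12 none of the 3. Among all 32851 windows of the same length, 5.56% held the NF-kappaB letters, 3.44% the interferon-type letters and 7.81% the AP-1 letters. These matches describe the sequence and are not evidence of binding.

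Of the tested members, only Cxcl10 had groups that did not overlap between the transfections. Its signals were 1876 and 3124 in siErbB4 replicates 2 and 1, against 711 and 581 in siScr replicates 2 and 1. The siErbB4 arrays were the high ones, and the groups did not overlap. The difference was 1.90 (SE 0.33, n = 2 each), or 3.73-fold, with 1.31 between the replicate 2 arrays and 2.50 between the replicate 1 arrays. It was number 4 among the differences in that direction over the 20726 features tested. Ccl9 differed by more in the other direction (-2.11), with overlapping groups and a dim probe that passed the filter only through siScr. Of the 7 members tested, 1 (Cxcl10) had siErbB4 above siScr without overlap and 0 had it below, beside 13.1% and 15.9% of all features. The test over all features called 0 (0%) at an adjusted p of 0.05 (limma). An unadjusted p under that value was found for 366 features, a smaller share of the 20726 than 0.05. Between the replicates Cxcl10 differed by -0.13 (SE 0.92), with -0.73 in siErbB4 and 0.46 in siScr, and the ranges overlapped. That difference was 1.12 without siErbB4 replicate 1 and 0.52 without siScr replicate 2, which leave the replicates unequal in transfection. As the groups also had opposite signs, its sign is not settled.

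**Figure D1:**
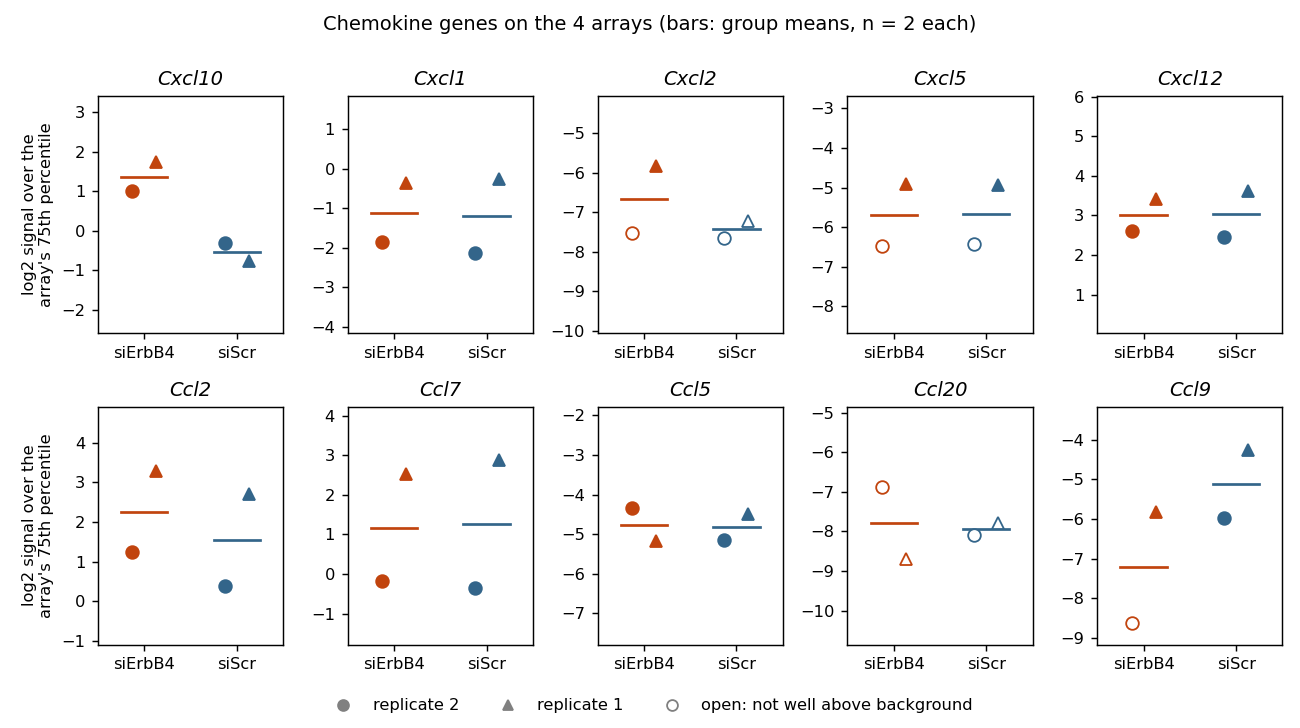
Signal of each member on the 4 arrays (vertical axis, log2 over the array's 75th percentile), with siErbB4 left of siScr, circles for replicate 2, triangles for replicate 1, bars for group means and open symbols where not well above background. Cxcl10 is separated by transfection, while Cxcl1, Cxcl12, Ccl2 and Ccl7 are lower on both replicate 2 arrays.

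The NF-kappaB-type CXC genes encode attractants of neutrophils that act through Cxcr2. Cxcl1 gave signals of 259.8 and 732 in siErbB4 replicates 2 and 1, against 199.7 and 819 in siScr replicates 2 and 1. Both replicate 2 arrays were low and both replicate 1 arrays high, whichever RNA was transfected. The replicate 2 minus 1 difference was -1.67 (SE 0.14), or 3.19-fold lower, and the siErbB4 minus siScr difference was 0.10 (SE 0.85). Cxcl5 gave 10.6 and 31.6 in siErbB4 replicates 2 and 1, against 10.2 and 32.6 in siScr replicates 2 and 1. It was well above background only on the replicate 1 arrays, where it was at least 2.65-fold higher. That bound sets the replicate 1 mean against the dimmest signal counted as well above background, or the probe's own signal where higher. It holds only for the signals used here, as the replicate 2 minus 1 difference of Cxcl5 was -0.47 with another background correction. Cxcl2, which lies next to Cxcl1 on chromosome 5, gave 5.10 and 16.6 in siErbB4 replicates 2 and 1, against 4.37 and 6.64 in siScr replicates 2 and 1. It was well above background only in siErbB4 replicate 1, so no fold is given.

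Ccl2 and Ccl7, neighbours on chromosome 11, encode attractants of monocytes that act through Ccr2. Ccl2 gave signals of 2227 and 9132 in siErbB4 replicates 2 and 1, against 1153 and 6472 in siScr replicates 2 and 1. The replicate 1 arrays were the high ones in both groups, and each siErbB4 array lay above the siScr array of its number although the groups overlapped. The replicate 2 minus 1 difference was -2.17 (SE 0.35), and the siErbB4 minus siScr difference was 0.71 (SE 1.09), with 0.85 at replicate 2 and 0.56 at replicate 1. Ccl7 gave 832 and 5429 in siErbB4 replicates 2 and 1, against 693 and 7283 in siScr replicates 2 and 1. It had the largest replicate difference of the tested members, -2.96 (SE 0.17) or 7.78-fold lower at replicate 2. Its siErbB4 minus siScr difference was -0.09 (SE 1.48), with 0.17 at replicate 2 and -0.36 at replicate 1. That SE of 1.48 contains the replicate difference.

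Cxcl12, the stromal attractant, was measured by a pair of probes. The brighter gave signals of 5719.7 and 10044 in siErbB4 replicates 2 and 1, against 4830.0 and 12089 in siScr replicates 2 and 1. Replicate 2 was again the lower, by -0.98 (SE 0.13), and the siErbB4 minus siScr difference was -0.03 (SE 0.51). The second probe gave 1416 and 1564 in siErbB4 replicates 2 and 1, against 1135 and 1818 in siScr replicates 2 and 1, a replicate difference of -0.32. The probes therefore had the same direction and differed in size.

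Ccl5, an attractant of T cells, gave dim signals of 46.6 and 26.0 in siErbB4 replicates 2 and 1, against 24.96 and 44.0 in siScr replicates 2 and 1. The groups crossed, with differences of 0.80 at replicate 2 and -0.69 at replicate 1. Ccl9 gave 2.36 and 16.8 in siErbB4 replicates 2 and 1, against 14.0 and 51.7 in siScr replicates 2 and 1. It was not well above background in siErbB4 replicate 2. Ccl9 was therefore kept for testing only through siScr, where it was higher, and the filter favours such a difference. Its siErbB4 minus siScr difference of -2.11 (SE 1.16) became -0.39 with another background correction, and its replicate difference of -2.27 (SE 1.01) became -0.43. Ccl20, which attracts cells through Ccr6, gave 7.99 and 2.29 in siErbB4 replicates 2 and 1, against 3.24 and 4.50 in siScr replicates 2 and 1, and was not well above background on any array.

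**Figure D2:**
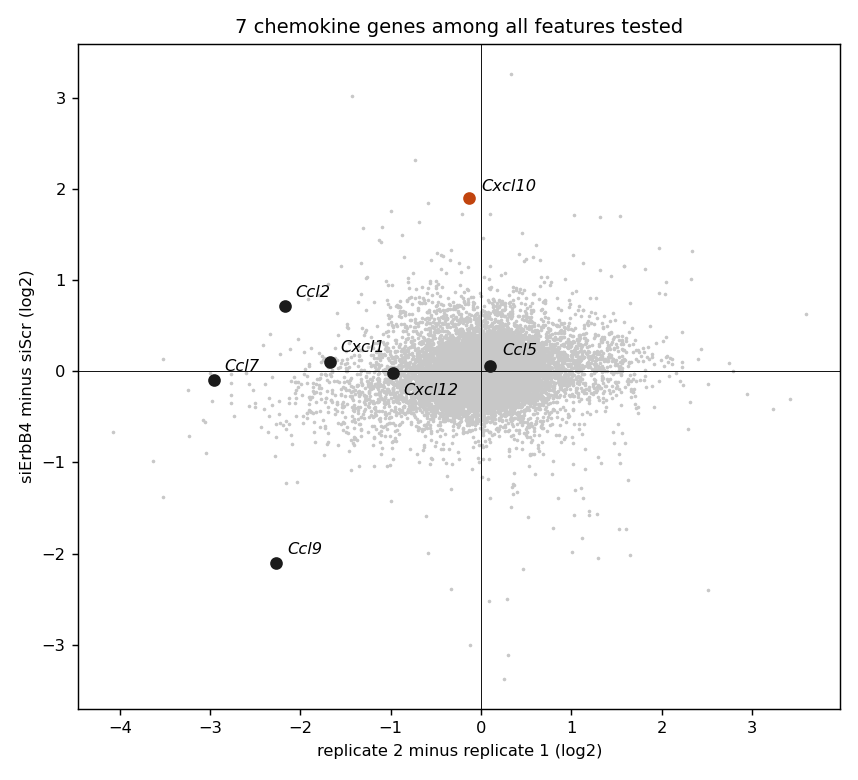
siErbB4 minus siScr difference (vertical axis, log2) against replicate 2 minus 1 difference (horizontal axis, log2) for the 7 tested members, with all tested features as grey points. Cxcl10 lies at 1.90 for transfection and -0.13 for replicate, while Ccl7 lies at -0.09 and -2.96.

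In counts, 5 of the 7 tested members were lower on both replicate 2 arrays without overlap, beside 26.0% of all features, and 0 were higher, beside 29.4%. These 5 were Cxcl1, Cxcl12, Ccl2, Ccl7 and Ccl9. The median over the 7 was -1.67 for replicate 2 minus 1, beside 0.02 over all features, and 0.06 for siErbB4 minus siScr, beside -0.01. The second median ran between -0.60 (without siScr replicate 2) and 1.03 (without siScr replicate 1) when single arrays were left out, which makes the groups unequal in replicate number. It was 0.29 between the replicate 2 arrays and -0.20 between the replicate 1 arrays, so its sign is not settled. As the genes were chosen on these contrasts, nothing is read from the counts. In cultures of mixed cells, fewer cells of a type and less RNA per cell cannot be told apart.

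Set against each other gene on the same array, Cxcl10 was relatively higher in siErbB4 than in siScr for all 6 tested partners. The gap between Cxcl10 and Cxcl1 was wider in siErbB4 by 1.81, with 1.02 at replicate 2 and 2.59 at replicate 1. Against Cxcl12 it was wider by 1.93, and against Ccl5 by 1.84. Against Ccl2 the widening was 1.19 and against Ccl7 1.99, and for these 2 genes the arrays of the groups overlapped. Only the relative position is compared, since signals of different probes have no common scale. All 6 gaps contain the same Cxcl10 difference of 1.90, which was known when the genes were chosen, so they are not separate results.

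**Figure D3:**
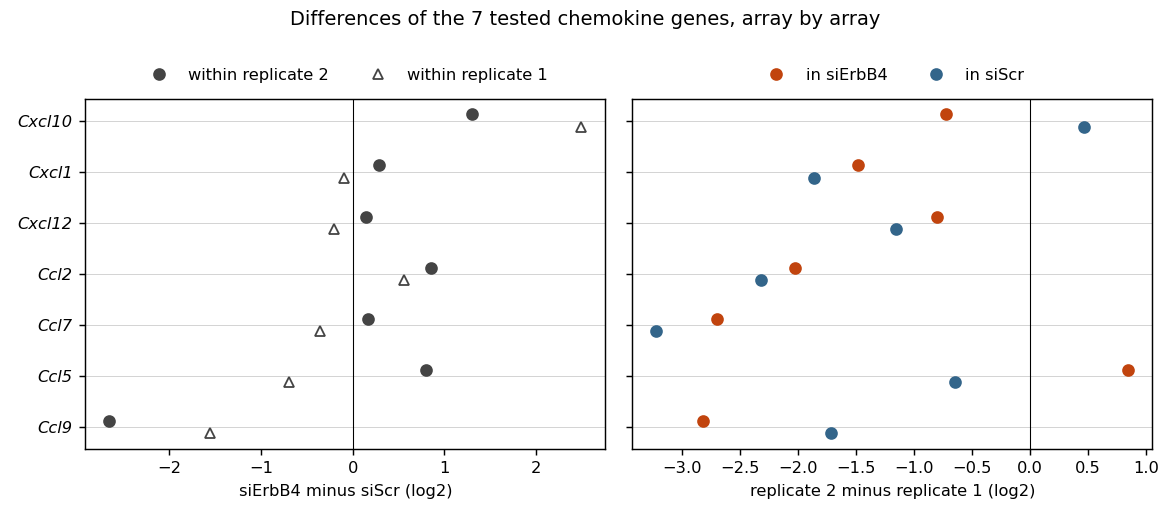
Differences (log2) of each tested member between single arrays, as siErbB4 minus siScr within each replicate number (left) and replicate 2 minus 1 within each transfection (right). On the left Cxcl10 is above 0 in both pairs, at 1.31 and 2.50, and so is Ccl2, at 0.85 and 0.56, while Ccl5 has opposite signs.

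The profile over the 4 arrays, centred on its own mean, was compared between genes by root mean square distance in log2 units. Cxcl1 was 0.354 from Cxcl12 and 0.396 from Ccl2, and Ccl2 was 0.566 from Ccl7. Cxcl10 was between 1.12 and 2.27 from the other members. The tested genes nearest to Cxcl10 were Avpr1b at 0.228, a vasopressin receptor, Gzmm at 0.287, a protease of cytotoxic lymphocytes, Gckr at 0.447, Smc1b at 0.456 and Foxd3 at 0.457. Avpr1b was well above background only on the siErbB4 arrays, with siScr signals of 4.71 and 5.43 in replicates 2 and 1, so its distance and place rest partly on background values. Those nearest to Ccl7 were Tnc at 0.0251, a matrix glycoprotein, Slc5a7 at 0.0484, a choline transporter, Gfi1 at 0.141, Lrrc15 at 0.145 and Adamts2 at 0.150, which trims procollagen. Smc1b was not well above background in siScr replicate 1 (8.32), nor Gfi1 in siScr replicate 2 (9.69). Their distances also rest partly on background values.

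Of 28 other chemokine genes 26 had a probe and 8 were tested, and 11 were well above background on no array, beside 29.2% of all features. Their medians were -0.14 for siErbB4 minus siScr and 0.05 for replicate 2 minus 1, with 0 called in either contrast. Ccl17 gave signals of 1460 and 3621 in siErbB4 replicates 2 and 1, against 1987 and 5859 in siScr replicates 2 and 1. Its replicate 2 minus 1 difference was -1.34 (SE 0.29, limma adjusted p = 0.0754). The siErbB4 minus siScr difference of Ccl17 was -0.58 (SE 0.68). Cxcl9, which like Cxcl10 binds Cxcr3, gave 17.6 and 12.01 in siErbB4 replicates 2 and 1, against 25.9 and 14.3 in siScr replicates 2 and 1, and was not well above background in siErbB4 replicate 1. Its siErbB4 minus siScr difference was -0.42 (SE 0.43) and its replicate difference 0.79 (SE 0.24, limma adjusted p = 0.149). Cxcl9 passed the filter only through siScr, where it was higher.

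Some genes were well above background on both replicate 1 arrays and on neither replicate 2 array, as were 0.827% of all features. They were 1 of 10 members, 4 of 26 other chemokines and 2 of 23 receptors. Pf4, platelet factor 4, gave 2.17 and 338 in siErbB4 replicates 2 and 1, against 2.43 and 35.5 in siScr replicates 2 and 1. Ccl3 gave 8.14 and 43.9 in siErbB4 replicates 2 and 1, against 9.20 and 59.3 in siScr replicates 2 and 1. Replicate 1 was at least 9.05-fold higher for Pf4, 4.21-fold for Ccl3 and 2.83-fold for Ccl4. With another background correction (normexp) the replicate 2 minus 1 differences were -1.60 for Pf4, -0.54 for Ccl3 and -0.39 for Ccl4. The bounds therefore hold only for the signals used here.

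**Figure D4:**
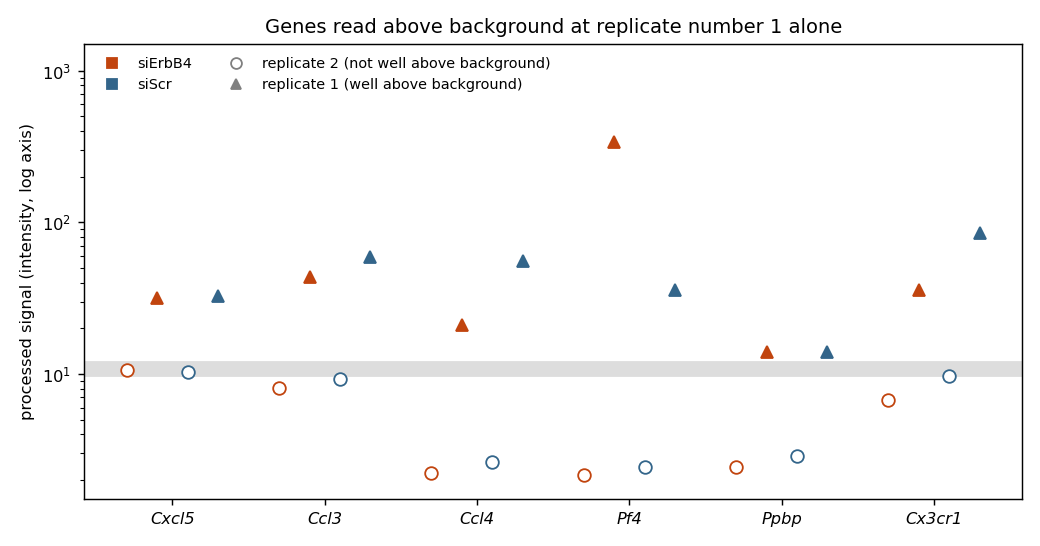
Signals (vertical log axis) on the 4 arrays of 5 chemokine genes and the receptor gene Cx3cr1, with open circles for replicate 2, triangles for replicate 1 and a grey band for the lowest signals counted as well above background on each array (9.63 to 12.04). Pf4 reaches 338 in siErbB4 replicate 1 and stays at 2.17 in siErbB4 replicate 2.

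Calls of genes outside the 10 are given next, for replicate 2 against 1. Over all features 2.34% were called lower and 2.89% higher at replicate 2. Over the 13 lists other than the members, 135 genes were tested, 14 were called lower and 7 higher. All 21 kept their direction under the 11 alternatives tried, but 0 were called without siScr replicate 1, without siScr replicate 2 or with no filter on dim probes, and 1 without siErbB4 replicate 2. Between siErbB4 and siScr 0 of the 135 were called, and 0 had an unadjusted p under 0.05 (limma).

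Receptors were mostly not detected: 12 of 23, among them Cxcr3, Cxcr2 and Ccr2, were well above background on no array. Of 8 tested, 1 fell and 0 rose at replicate 2, with a median of -0.70, or -0.0865 with normexp, another background correction. Ccr7, which guides lymphocytes and dendritic cells to lymph nodes, gave 21.3 and 45.5 in siErbB4 replicates 2 and 1, against 19.2 and 53.7 in siScr replicates 2 and 1 (difference -1.20, SE 0.12, limma adjusted p = 0.0224). With normexp the Ccr7 difference was -0.34 and was not called. Cxcr4, the receptor of Cxcl12, was dim, with signals between 8.19 and 27.9.

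The NF-kappaB subunits and regulators had 15 tested genes with a median of -0.29 for replicate 2 minus 1 and 0 called. For siErbB4 minus siScr the median was 0.08, with 0.34 (SE 0.18) for Nfkbia, which holds NF-kappaB in the cytoplasm, and 0.32 (SE 0.17) for Tnfaip3, which damps its activation. Among cytokine and adhesion genes known as NF-kappaB targets, 11 of 18 were tested, and 2 fell and 1 rose at replicate 2. Csf1, the growth factor of macrophages, gave 923 and 2152 in siErbB4 replicates 2 and 1, against 798 and 2436 in siScr replicates 2 and 1 (difference -1.33, SE 0.12, limma adjusted p = 0.0208). Ptgs2, the inducible cyclooxygenase, fell by 1.17 on the log2 scale (limma adjusted p = 0.0243), while the adhesion molecule Vcam1 rose by 0.74 (limma adjusted p = 0.0474). Saa3, an acute-phase protein gene named after its values were seen, gave 8.63 and 78.6 in siErbB4 replicates 2 and 1, against 16.6 and 273 in siScr replicates 2 and 1. Its replicate difference of -3.52 (SE 0.67, limma adjusted p = 0.0601) did not pass the test and rests on a signal not well above background in siErbB4 replicate 2. Tnf, Il1a and Il1b were well above background on no array.

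Cxcl10 differed more between the transfections than any tested gene of the interferon-induced list. As Cxcl10 was chosen with this difference known, the comparison is a description only. Of 30 listed, 23 were tested, and their siErbB4 minus siScr differences had a median of -0.01 and a highest value of 0.37, against 1.90 for Cxcl10. Ifit1, not well above background in siErbB4 replicate 1, differed by -0.64 (SE 0.24) and Ifit3 by -0.77 (SE 0.51), and with normexp by -0.15 and -0.29. Ifit1 passed the filter only through siScr, where it was higher. Without single arrays Ifit3 ran between -1.35 (without siErbB4 replicate 1) and -0.20 (without siErbB4 replicate 2). At replicate 2, 4 fell and 1 rose. Isg15, a ubiquitin-like protein, gave 166 and 516 in siErbB4 replicates 2 and 1, against 189.8 and 687 in siScr replicates 2 and 1 (difference -1.66, SE 0.18, limma adjusted p = 0.0252). The differences were -1.32 for Oasl2, -1.25 for Ifih1 and -1.07 for Usp18, and 0.82 for Ifit2, which rose (limma adjusted p from 0.0203 to 0.0349). With normexp they were -0.35 for Oasl2, which was then not called, -0.62 for Usp18 and 0.52 for Ifit2. The Oasl2 probe was not well above background in siScr replicate 2.

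Of receptors and adaptors upstream of these genes, 18 were tested with medians of -0.10 for siErbB4 minus siScr and -0.27 for replicate 2 minus 1. The cytokine inhibitor Socs3 fell by 1.03 at replicate 2 (limma adjusted p = 0.0277). Il1rap, part of the interleukin 1 receptor, had a siErbB4 minus siScr difference of 0.74 (SE 0.45), which did not pass the test.

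Some markers of other cell types differed between the replicates alongside the chemokines. Of 12 fibroblast markers 11 were tested with a median of -1.29, and 3 fell at replicate 2, with differences of -2.27 for Col1a1, -1.89 for Postn and -0.73 for Pdgfra (limma adjusted p from 0.0299 to 0.0400). Their summed signal, in units of the 75th percentile, was 40.5 and 63.8 in siErbB4 replicates 2 and 1, against 45.9 and 84.1 in siScr replicates 2 and 1. Vim was the brightest of them on every array and so weighed most in the sum. It gave 31373 and 38830 in siErbB4 replicates 2 and 1, against 32335 and 44398 in siScr replicates 2 and 1. Its replicate difference was -0.29. Of 5 tested smooth muscle markers 2 fell, Acta2 (-1.22) and Tagln (-1.04), but the median was -0.13. Cnn1 (-0.10), Des (-0.13) and Myocd (0.30) were not called. Of 10 cardiomyocyte markers 3 rose, Tnni3 by 0.97, Nppa by 1.31 and Ryr2 by 0.69, and 0 fell. Their part in the chemokine differences was not tested.

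Macrophage markers were mixed. Of 16 with a probe 8 were tested, with medians of -0.41 for siErbB4 minus siScr and -1.19 for replicate 2 minus 1. With normexp the replicate median was -0.33, and without single arrays the siErbB4 minus siScr median ran between -1.07 and -0.0816. Lyz2 rose by 3.24 at replicate 2 (limma adjusted p = 0.0189), with 790.0 and 71.3 in siErbB4 replicates 2 and 1, against 838 and 118 in siScr replicates 2 and 1, and Cd14 fell by 1.82 (limma adjusted p = 0.0481), with a difference of -0.79 under normexp. By its brightest probe, each of 5 genes, Tyrobp and Mpeg1 among them, was well above background only on the replicate 1 arrays, and Mrc1, Cd163 and C1qa on no array. The summed signal was 6.98 and 7.19 in siErbB4 replicates 2 and 1, against 8.15 and 8.15 in siScr replicates 2 and 1, of which Itgam alone gave 71.8% to 80.6%. Their part in the chemokine differences was not tested.

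Of the remaining lists, 6 endothelial markers were tested with medians of -0.34 for siErbB4 minus siScr and -0.31 for replicate 2 minus 1, and 0 were called. The 6 tested endoderm markers had medians of 0.38 and 0.91, and Afp rose by 0.65 at replicate 2 (limma adjusted p = 0.0462). The 6 pluripotency markers had medians of 0.38 and -0.12, and 0 were called.

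**Figure D5:**
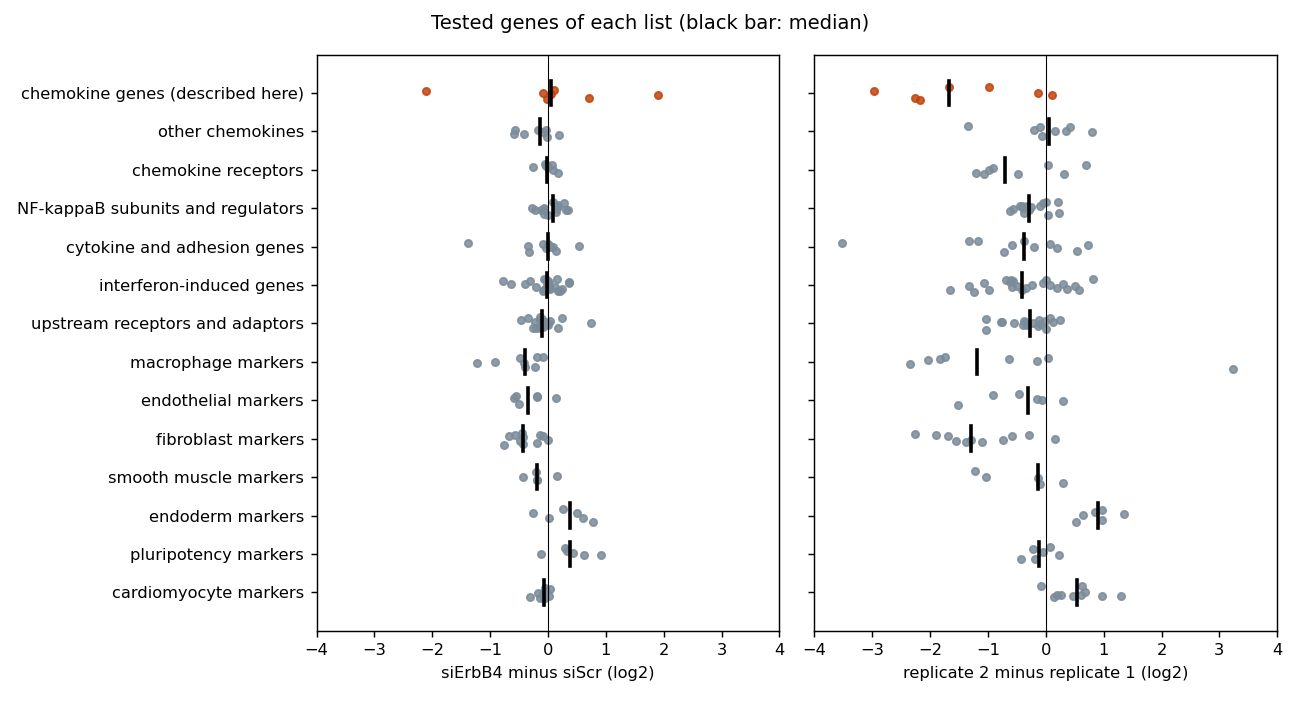
siErbB4 minus siScr and replicate 2 minus 1 differences (log2) of the tested genes of each list, a point for each gene and a black bar for the median. Interferon-induced genes reach 0.37 for siErbB4 minus siScr, and fibroblast markers have a median of -1.29 for replicate 2 minus 1.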

How the data were processed

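Total RNA of 4 samples was measured on Agilent arrays with a single dye (Cy3), the labelled copy RNA being made from 200 ng of RNA per the labels' protocols. Per the submitters' processing notes, images were read by the authors with Agilent Feature Extraction (version 10.7.1.1). Deposited spot intensity was corrected for background and for a spatial trend, per the file headers, and carries no scaling between arrays. A value table deposited by the authors, in log2 units, equalled log2 intensity after subtracting the 75th percentile, to within 0.0033. Its column medians were -3.81 and -3.83 for siScr 1 and 2 and -3.83 and -3.86 for siErbB4 1 and 2. The scanner software's spot flags were used as deposited.

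Control spots (1377 of 44397) and outlier-flagged spots (131 to 179 per array) were left out, and 0 were saturated. Repeated spots of 1 probe were averaged. Of 39429 probes, 27508 were named through RefSeq accessions and 11921 had no symbol here. Probes well above background on both arrays of a group were kept, the brightest standing for a gene, which gave 20726 features. A gene kept through a single group, such as Ccl9, Cxcl9 or Ifit1 through siScr, is favoured to be higher in that group. Groups, and replicates 2 and 1, were compared by two-sided limma fits (version 3.58.1, R 4.3.3), with Benjamini-Hochberg adjustment over all features and a threshold of 0.05. Neither reported fit had a term for the other factor. With 2 arrays a group, the number of arrays limits the precision. Replicate numbers come from the titles and name no condition. The arrays' annotation is of another build than GRCm38.p6, which was used for names, neighbours and promoter windows.

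The members, the 13 other lists, the tests and the rule for named genes were chosen with earlier results of these data known. The rule names all members and from each list up to 6 called genes per contrast, or, in a list with no call, the 2 of lowest p, and the 5 genes nearest to Cxcl10 and Ccl7. Some genes are named outside it, chosen after their values were seen. Alternatives were normexp background correction with an offset of 50, quantile normalization, no filter, the mean of probes, the authors' table, a block or term for the other factor, a filter also by replicate number and each array left out.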

Additional observations from a re-analysis of the deposited data

Results flagged for a closer look

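For 2 members well above background on all 4 arrays, every array of one group moved the opposite way to the other between the replicates. Cxcl10 differed by -0.73 in siErbB4 and 0.46 in siScr for replicate 2 minus 1, a gap of -1.19. Ccl5 differed by 0.85 in siErbB4 and -0.65 in siScr, a gap of 1.496. With 1 pair of arrays in each group, neither gap was tested.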

How the results depend on the processing

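The Cxcl10 difference between siErbB4 and siScr lay between 1.54 and 2.26 under the 11 alternatives, but not all of these could change it. Cxcl10 has 1 probe, well above background on every array. Both filter alternatives and the mean of probes therefore returned 1.90 by construction. The replicate block did so too, as each group has both replicate numbers. The authors' table holds the same scaling (1.90). Normexp gave 1.78, quantile normalization 1.898, and single arrays left out 1.54 to 2.26. Calls for siErbB4 against siScr were 0 under all 11, with 366 features at an unadjusted p under 0.05 in the reported limma fit and 1547 with the replicate number as a block. The labels do not say what same-numbered arrays share. Deviations of same-numbered arrays from their group means correlated at 0.679 across features, over only 2 pairs. On the slide the replicate 2 arrays lay at positions 1 and 2 and the replicate 1 arrays at positions 3 and 4. Position and replicate number therefore cannot be told apart. Calls for replicate 2 against 1 were 1085, became 1875 with normexp and 0 with no filter (4649 unadjusted, limma), and ranged from 0 to 1540 with an array left out. They were 73 without siErbB4 replicate 2 and 0 without siScr replicate 1 (5280 unadjusted) or siScr replicate 2 (2688 unadjusted). The filter by replicate number, added after seeing the data, gave 1291. The members' median replicate difference of -1.67 became -1.01 with normexp and ranged from -1.72 to -1.05 with an array left out. The siErbB4 minus siScr differences of Cxcl1, Cxcl12, Ccl2, Ccl7 and Ccl5 turned sign when single arrays were left out. So did the median over the tested members (-0.60 to 1.03) and the replicate differences of Cxcl10 (-1.38 to 1.12) and Ccl5 (-0.30 to 0.50). Leaving out 1 array makes the groups unequal in replicate number, so each such value mixes both differences. Between same-numbered arrays Ccl2 kept its sign (0.85 and 0.56), while Cxcl1, Cxcl12, Ccl7 and Ccl5 did not. Cxcl12 also turned with the mean of its probes (0.0063). Of the 13 list medians, 9 for siErbB4 minus siScr and 3 for replicate 2 minus 1 turned sign under at least 1 alternative. Named genes that turned sign were Ackr2 (-0.0119 with normexp), Actc1 (0 with quantile normalization) and, when arrays were left out, the group differences of Ackr2 (-0.0071 to 0.1458), Cxcr4 (-1.05 to 0.54), Col1a2 (-1.635 to 0.1169) and Actc1 (-0.1557 to 0.0047) and the Sall4 replicate difference (-0.397 to 0.0403). The cause was not tested. All arrays share 1 slide, so no slide block was fitted, and dim probes such as those of Ccl9 and Ccl5 limit what can be read.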
